A study of Mus musculus with 55 samples.

Results

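The genes described here build, coat and break down the triglyceride droplets of the liver cell: Dgat1, Dgat2, Lpin1, Lpin2, Plin2, Plin5, Cidec, Pnpla2, Pnpla3 and Cd36. They were taken by symbol from the count tables of mouse livers lacking the WNT pathway inhibitors Rnf43 and Znrf3, and are 10 of the 34490 symbols that the tables of both sequencing batches share. All 10 passed the filter on low counts in every comparison. Fatty acids enter the hepatocyte in part through the receptor CD36 and are joined to glycerol in steps, of which the lipins remove the phosphate and DGAT1 and DGAT2 add the last fatty acid. The product is stored in droplets coated by perilipins (Plin2 and Plin5) and CIDE proteins (Cidec), and is released by lipases of the patatin family (Pnpla2, also called ATGL, and its relative Pnpla3). A surplus of such droplets is steatosis.

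RNA from whole liver of adult C57BL/6 mice was sequenced (Smart-Seq2). Every mouse carried floxed Rnf43 and Znrf3 alleles, and the control livers (R&Zflox) kept both genes after vehicle or a null virus. In R&Zdel livers the exons for the RING domain were deleted in the adult, either with tamoxifen in mice with an albumin-driven Cre (AlbCre-ERT2) or with an AAV8 virus that carries Cre under the TBG promoter of hepatocytes, so that other liver cells kept the genes. Undamaged livers were taken 1 month (1M; 4 R&Zdel and 4 R&Zflox, batch 2), 3 months (3M; 2 R&Zdel, 1 from each batch, and 5 R&Zflox, 2 from batch 1 and 3 from batch 2) and 7 months (7M; 5 of each genotype, 2 from batch 1 and 3 from batch 2) after deletion. Livers after repeated doses of carbon tetrachloride (CCl4), a hepatotoxin, were all male and of batch 1, with 2 R&Zdel and 2 R&Zflox livers at 4 and at 170 days after the last dose, and 2 R&Zdel livers and 1 R&Zflox liver at 50 days. Livers after partial hepatectomy (PHx), in which part of the liver is removed, were of batch 2, with 3 of each genotype at 7 and at 21 days. The 1M livers, the batch 2 livers of 3M and the PHx livers were induced with the virus, and the other livers with tamoxifen, so that the route of induction and these groups cannot be told apart.

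Levels are given in CPM, which are counts scaled to library size. The 53 libraries held from 11721687 to 38692089 counts, of which 48 libraries could be placed in a group. Titles of 2 of these, 1 R&Zdel 3M and 1 R&Zflox 7M library of batch 1, both female, went against the other labels. Undamaged fold changes of Lpin2, Pnpla2, Dgat2, Lpin1 and Dgat1 that met a rule are also given without them. Other results that use them, such as the sex comparison, are given only with them. Both R&Zflox libraries titled as 170 days after CCl4 stand in the study's sample list under 50 days as well as under 170 days, and the titles were followed. Of 49 libraries with a listed sex, 1 went against it: R&Zflox PHx 7 days replicate 3, listed as male, had 386 CPM of Xist and 0.0608 CPM over the Y-linked genes. Counts over whole genes do not show the excised exons: Rnf43 (log2 fold change 1.66, SE 0.28) and Znrf3 (1.41, SE 0.18) were higher in undamaged R&Zdel liver, as was Glul (2.66, SE 0.21), a WNT target and the glutamine synthetase of pericentral hepatocytes. Alb, encoding albumin, was lower (-1.39, SE 0.12). Of 7 markers listed for fat cells, which also use many of these genes, Lep and Plin1 were at 0 CPM in every grouped library. Adipoq reached at most 0.746 CPM. The 7 markers together summed to between 127 and 4279 CPM per library, and the part of fat cells was not tested. Thrsp, also among the 7, was the gene of most similar level to Dgat2 in undamaged liver (Pearson's r = 0.87). Its share of the sum was not computed. In whole liver, fewer cells of a type and less RNA per cell cannot be told apart.

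A gene is called changed below where the Benjamini-Hochberg adjusted p of edgeR's quasi-likelihood test was under 0.1 and the log2 fold change was beyond 1 in either direction. The looser rule, which has no correction for the number of genes, asks for p under 0.05 and a log2 fold change beyond 0.4. A member that meets only the looser rule is described as higher or lower, not as changed. Where groups are said not to overlap, this only describes their libraries. Such separation can arise by chance in groups this small, and its share over all genes was not computed.

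In the 14 undamaged R&Zflox livers the 10 genes spanned a wide range of levels per kilobase of exon. Dgat2 on chromosome 7 (99153663 to 99182713, minus strand of mm10) had the highest median, 261 CPM per kb (168 to 361), and Plin2 on chromosome 4 (86626910 to 86670217, minus) followed with 234 CPM per kb (124 to 356); these ranges overlapped for most of their length. Plin5, at chromosome 17 (56111597 to 56117606, minus), had a median of 40.7 CPM per kb (21.3 to 63.9), clear of both. Next came the lipase gene Pnpla2 (chromosome 7, 141455188 to 141460743, plus) with 23.3 CPM per kb and Dgat1 (chromosome 15, 76502012 to 76512021, minus) with 14.9 CPM per kb, whose ranges overlapped. Cd36 (chromosome 5, 17781690 to 17888959, minus), Lpin2 (chromosome 17, 71183532 to 71249818, plus) and Lpin1 (chromosome 12, 16535669 to 16653903, minus) had medians of 8.54, 8.26 and 4.94 CPM per kb, also within each other's ranges. At the bottom stood Cidec (chromosome 6, 113424634 to 113435760, minus), with 1.41 CPM per kb, and Pnpla3 (chromosome 15, 84167776 to 84189521, plus), with 0.210 CPM per kb and libraries at 0. Levels of Cidec and Pnpla3 varied widely between libraries of a group.

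RefSeq start-site windows on GRCm38.p6 (250 bases before to 50 after the start) were at hand for 8 of the 10 genes, 12 windows in all. Those of Plin2 and Lpin2 are shown because Plin2 changed at 4 days after CCl4 and Lpin2 had the smallest adjusted p of the members in undamaged liver, and because each holds a CACGTG E box next to the start. Lpin2 had 3 windows, of which the 1 shown holds the E box. Capitals mark the E box. Both run in the direction of the gene, Plin2 from chr4:86670010-86670309 on the minus strand and Lpin2 from chr17:71183282-71183581 on the plus strand.
Plin2: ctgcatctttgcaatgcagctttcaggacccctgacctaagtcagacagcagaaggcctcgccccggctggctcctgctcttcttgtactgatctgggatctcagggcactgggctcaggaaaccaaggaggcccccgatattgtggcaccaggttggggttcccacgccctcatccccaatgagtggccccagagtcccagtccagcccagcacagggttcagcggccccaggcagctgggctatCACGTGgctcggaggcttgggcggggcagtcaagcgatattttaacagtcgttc
Lpin2: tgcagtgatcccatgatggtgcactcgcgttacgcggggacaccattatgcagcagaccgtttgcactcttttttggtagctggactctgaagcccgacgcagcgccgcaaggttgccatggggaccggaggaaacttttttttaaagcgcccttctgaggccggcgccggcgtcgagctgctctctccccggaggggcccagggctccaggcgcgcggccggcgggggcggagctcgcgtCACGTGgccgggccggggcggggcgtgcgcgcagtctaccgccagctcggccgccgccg
The first base of the E box lay at position -4 from the start of Plin2 and at -9 from that of Lpin2. CACGTG, which reads the same on both strands, was present in 7.15% of 32851 windows of the same length. The other letters searched on both strands were CTTTGAT (3.73% of windows), CTTTGAA (5.14%) and AGATCAAAG (0.344%), which are forms of the TCF/LEF site of the WNT pathway and can overlap one another, the direct repeat of AGGTCA with 1 base between (0.0396%) and TCACNCCAC (1.24%). CTTTGAA was found in the Pnpla3 window, on the minus strand at -195, and 9 of the 12 windows held none of these letters.

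In undamaged liver Lpin2, a lipin of the liver, had the smallest adjusted p of the members over the mean of the time points. At 1M the R&Zflox libraries had 67.2, 131, 134 and 183 CPM and the R&Zdel libraries 143, 253, 297 and 303 CPM. The groups overlapped only through the lowest R&Zdel library. At 7M, batch 1 had 69.3 and 114 CPM in R&Zflox and 140 and 227 CPM in R&Zdel, and batch 2 had 145, 209 and 216 CPM in R&Zflox and 283, 418 and 451 CPM in R&Zdel. Within each batch every 7M R&Zdel library was above every R&Zflox library. At 3M, batch 1 had 57.8 and 77.6 CPM in R&Zflox and 146 CPM in R&Zdel, whereas in batch 2 the R&Zdel library, with 117 CPM, lay among R&Zflox libraries of 96.4, 134 and 154 CPM.

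Over the mean of the 3 time points, Lpin2 was 1.82-fold higher in R&Zdel (log2 fold change 0.87, SE 0.19, adjusted p = 0.0143 by edgeR). It passed the threshold on the adjusted p but not the one on the fold, so it does not count as changed. The log2 fold change was 0.63 in batch 2 alone (adjusted p = 0.28), 0.59 without the libraries of conflicting title (adjusted p = 0.187) and 0.42 in male mice alone (adjusted p = 0.467), and over all alternatives the adjusted p ran from 7.53e-04 to 0.467. At 1M the log2 fold change was 0.95 (SE 0.32, adjusted p = 0.288) and at 7M 1.01 (SE 0.28, adjusted p = 0.197). Without the libraries of conflicting title these were 0.97 (adjusted p = 0.279) and 0.93 (adjusted p = 0.31), and at 1M the difference in male mice alone was 0.48.

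**Figure D1:**
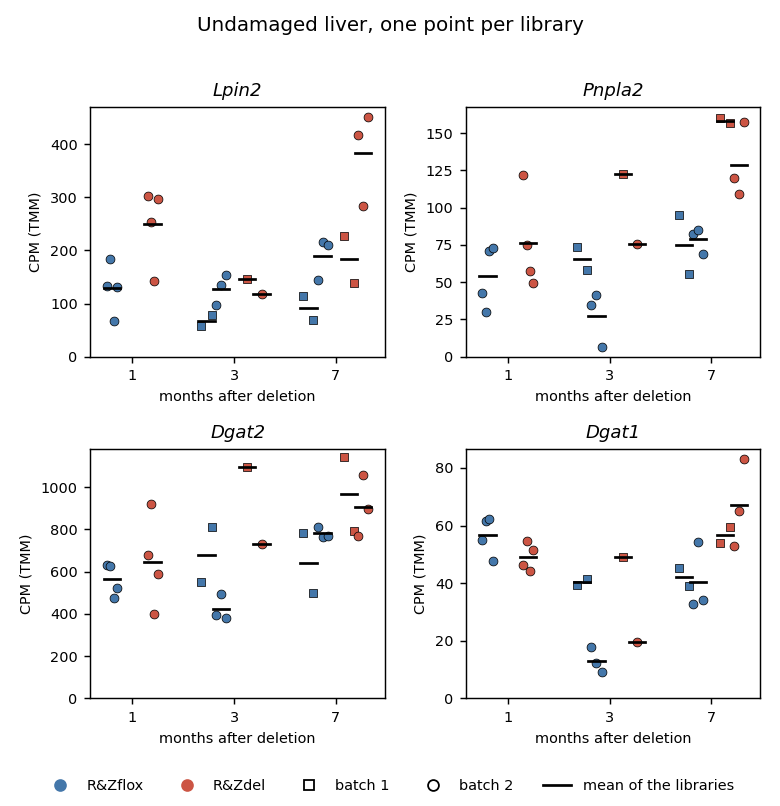
CPM of Lpin2, Pnpla2, Dgat2 and Dgat1 (vertical axes) in each undamaged library at 1, 3 and 7 months after deletion, with R&Zflox in blue, R&Zdel in red, squares for batch 1, circles for batch 2 and a bar at the mean of each batch. At 7 months the R&Zdel points of Lpin2 and Pnpla2 lie above the R&Zflox points of their own batch.

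Pnpla2, the lipase that takes the first fatty acid off a triglyceride, was the second gene with a difference of this kind. At 7M it had 55.2 and 95.0 CPM in R&Zflox against 157 and 160 CPM in R&Zdel in batch 1, and 68.8, 82.2 and 85.3 CPM against 109, 120 and 157 CPM in batch 2. No 7M R&Zdel library was as low as an R&Zflox library of its batch. At 1M the groups overlapped, with 30, 42.6, 70.7 and 72.9 CPM in R&Zflox and 49.7, 57.6, 75.2 and 122 CPM in R&Zdel. At 3M, R&Zflox had 57.9 and 73.6 CPM in batch 1 and 6.37, 34.6 and 41.1 CPM in batch 2, and R&Zdel had 123 and 75.3 CPM in these batches. Over the 3 time points Pnpla2 was 1.72-fold higher in R&Zdel (log2 fold change 0.79, SE 0.24, adjusted p = 0.111 by edgeR), which met the looser rule alone. Its log2 fold change in male mice alone was 0.81, in batch 2 alone 0.90 and without the libraries of conflicting title 0.79 (adjusted p = 0.159). Pnpla2 thus moved in the same direction as the synthesis gene Lpin2 although its product breaks triglyceride down.

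Dgat2, which makes most of the triglyceride from newly formed fatty acids, was higher in R&Zdel by 0.44 on the log2 scale over the 3 time points (SE 0.15, adjusted p = 0.173 by edgeR). In batch 2 at 1M its libraries overlapped fully, with 474, 522, 627 and 630 CPM in R&Zflox and 398, 588, 680 and 922 CPM in R&Zdel. At 3M, R&Zflox had 550 and 810 CPM in batch 1 and 378, 395 and 492 CPM in batch 2, against 1097 and 733 CPM in the R&Zdel libraries of these batches. That gave a log2 fold change of 0.78 at 3M (SE 0.30, adjusted p = 0.605), and 0.63 (adjusted p = 0.682) without the libraries of conflicting title. Over the 3 time points the difference was 0.16 in male mice alone and 0.33 (adjusted p = 0.418) without those libraries.

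The other members met fewer rules. Lpin1, a second lipin that also acts with nuclear factors, was higher at 3M (log2 fold change 1.31, SE 0.55, adjusted p = 0.685), with 24.5 and 34.6 CPM in R&Zflox and 71.3 CPM in R&Zdel in batch 1, and 14, 14.2 and 15.9 CPM against 34.0 CPM in batch 2. Without the libraries of conflicting title this difference was 0.90 (adjusted p = 0.729), and with only the R&Zdel library of batch 1 left out it was 0.79. Dgat1 was higher at 7M (0.65, SE 0.31, adjusted p = 0.546) and its batch 2 libraries overlapped there, with 32.9, 34.0 and 54.2 CPM in R&Zflox and 53.1, 65.1 and 83.0 CPM in R&Zdel. It was 0.43 without R&Zdel 7M replicate 5, 0.31 in batch 1 alone and 0.57 without the libraries of conflicting title. The coat genes Plin2 (0.17, SE 0.17) and Plin5 (0.18, SE 0.24) and the uptake gene Cd36 (0.22, SE 0.45) had differences near their standard errors over the 3 time points. Cidec (1.16, SE 0.70) and Pnpla3 (-0.59, SE 1.31) had wide errors.

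By count, 0 of the 10 genes were changed at 1M, 3M, 7M or in the mean by edgeR, and 0 by DESeq2, beside 0.436%, 0.226%, 0.451% and 1.20% of all genes tested. By the looser rule 1, 2, 3 and 3 members were higher and 0 lower, beside 7.73%, 6.43%, 8.81% and 11.0% of all genes in either direction. The estimates were positive for 9 of 10 members in the mean, beside 48.1% of all genes, with a median log2 fold change of 0.38 against -0.03. The members were not tested as a set. A test of whether the genotype difference itself varied between 1M, 3M and 7M (2 degrees of freedom) called 0 of the 10 genes, and 0.00% of all genes, with 626 genes at an unadjusted p under 0.05; the members' p ran from 0.148 to 0.956. Female against male liver called 0 of 10 members by either rule, beside 0.918% (changed) and 6.59% (looser rule) of all genes. The summed CPM of 6 hepatocyte markers also moved with genotype, from 102140 to 163931 in undamaged R&Zflox and from 62275 to 146403 in undamaged R&Zdel, and its part in these differences was not tested. Stellate cell markers summed to between 150 and 227 CPM in R&Zdel and between 265 and 312 CPM in R&Zflox at 1M, and in batch 1 at 7M to 86.6 and 158 CPM against 181 and 260 CPM. In batch 2 at 7M they overlapped. The macrophage sums of batch 1 at 7M were 111 and 306 CPM in R&Zdel and 358 and 435 CPM in R&Zflox. Those of batch 2 at 7M were 105 to 189 CPM against 204 to 288 CPM, and those of 1M overlapped. At 3M the R&Zdel library had 248 CPM against 291 and 345 CPM in batch 1. In batch 2 it had 153 CPM against 45.2 to 78.5 CPM. Endothelial sums at 1M were higher in R&Zdel, at 296 to 347 CPM against 196 to 290 CPM, and overlapped at 7M. The part of these sums was not tested either.

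Among 65 tested genes of 5 lists of the wider pathway, in undamaged liver 0 were changed upward and 1 downward at 1M, at 7M and in the mean, and 0 at 3M, beside the 0.436%, 0.451%, 1.20% and 0.226% of all genes given above. The 1 gene was Hsd17b13, which encodes a droplet-bound enzyme of hepatocytes. It fell to between 26.2 and 47.8 CPM in R&Zdel at 1M from between 200 and 234 CPM in R&Zflox, and its mean log2 fold change was -2.34 (SE 0.27, adjusted p = 6.87e-06 by edgeR). The groups did not overlap at 1M. In the sex comparison Vldlr, a lipoprotein receptor, was the 1 gene of the lists that changed, and it was higher in females (log2 fold change 5.56).

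At 4 days after the last CCl4 dose Plin2, the main droplet coat gene of hepatocytes, was lower in R&Zdel. The R&Zflox libraries had 1101 and 1584 CPM and the R&Zdel libraries 532 and 550 CPM. Grouped undamaged livers of the same batch ranged from 604 to 1155 CPM, and both R&Zdel libraries lay below that range. The 5 libraries of this batch that were not grouped, whose labels disagree, ranged from 421 to 756 CPM. Both R&Zdel libraries lay within that wider spread of lower values. The lower R&Zflox library was exceeded by 1 undamaged library only. In batch 2 undamaged livers ranged from 317 to 939 CPM. Plin2 fell 2.39-fold (log2 fold change -1.25, SE 0.28, adjusted p = 0.0190 by edgeR). Leaving out R&Zdel 4 days replicate 2 raised the adjusted p to 0.104, and leaving out R&Zflox 4 days replicate 2 gave -0.97 with 0.112, which ends the call in both cases; over all alternatives it ran from 6.44e-05 to 0.112.

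Both DGAT genes were lower at 4 days. Dgat1 had 48.2 and 50.2 CPM in R&Zflox and 29.1 and 35.4 CPM in R&Zdel (log2 fold change -0.55, SE 0.16, adjusted p = 0.0451 by edgeR). Dgat2 had 364 and 402 CPM against 217 and 238 CPM (-0.69, SE 0.23, adjusted p = 0.0634). Neither gene overlapped between the genotypes, which has little weight with 2 libraries each, and both passed the adjusted p but not the fold of 1. Both passes hung on single libraries. Dgat1 was at -0.41 without R&Zdel 4 days replicate 1 and no longer passed. Dgat2 was at -0.63 without R&Zdel 4 days replicate 2, and also without R&Zflox 4 days replicate 1, and passed in neither case. Pnpla2 had 73.6 and 84.1 CPM in R&Zflox and 49.3 and 50.3 CPM in R&Zdel, with an error that reached closer to 0 (-0.60, SE 0.30, adjusted p = 0.187). Cidec, whose protein fuses droplets, stood the other way, with 2.06 and 2.59 CPM in R&Zflox and 5.80 and 9.12 CPM in R&Zdel (1.73, SE 0.80, adjusted p = 0.158). Lpin2 (0.01, SE 0.28), Plin5 (-0.01, SE 0.31) and Cd36 (-0.07, SE 0.26) lay close to 0, so the Lpin2 difference of undamaged liver was not seen in these livers; the 2 settings were not tested against each other.

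At 4 days 1 of the 10 genes was changed, downward, beside 15.2% of all genes tested, and by the looser rule 3 were lower and 0 higher, beside 34.5%. The members' median log2 fold change was -0.18 against 0.06 over all genes. These shares of members were no larger than the shares over all genes. Other cell types moved with genotype at this time. All 4 tested cholangiocyte markers were changed upward in R&Zdel, and the summed CPM of the 5 markers of that list was 2667 and 4215 in R&Zdel against 80.2 and 151 in R&Zflox. The hepatocyte sum was 54748 and 75792 in R&Zdel against 112982 and 117924 in R&Zflox. The 8 macrophage markers summed to 436 and 807 CPM in R&Zdel and to 621 and 1257 CPM in R&Zflox, with overlap, and the 7 endothelial markers to 115 and 235 CPM against 299.97 and 301 CPM. The part of these cell types in the member differences was not tested.

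**Figure D2:**
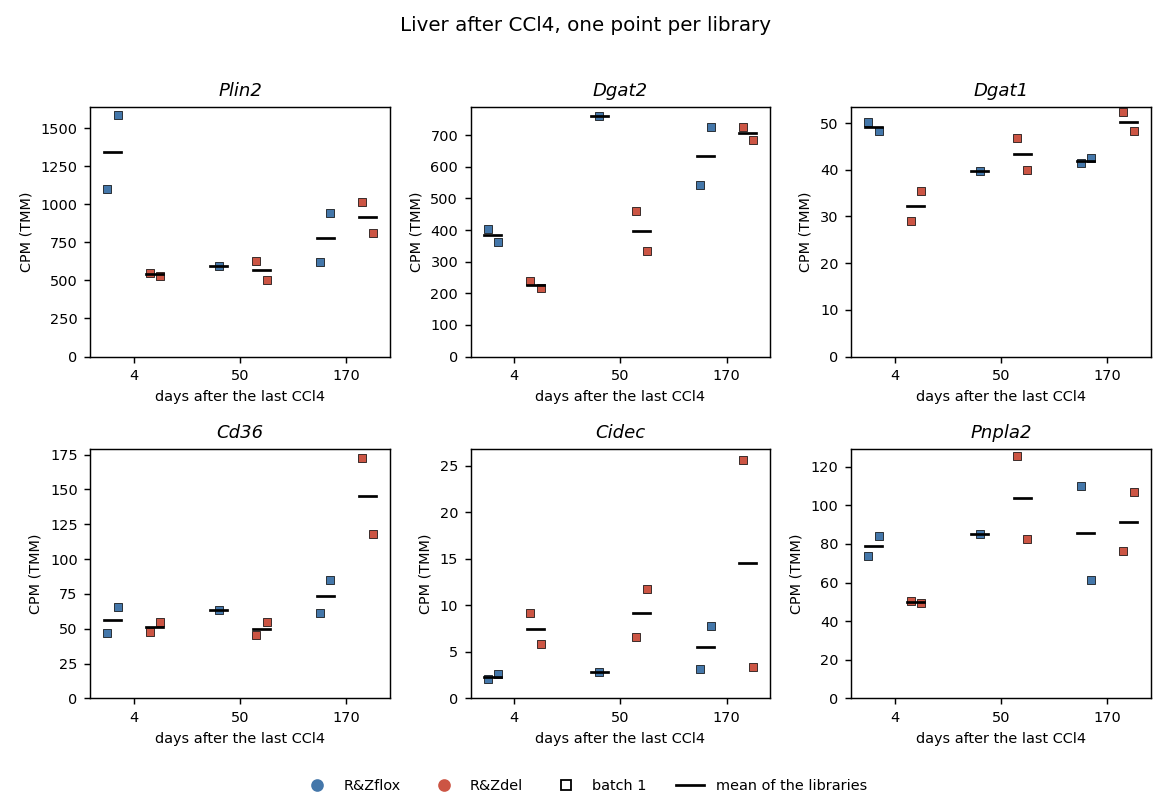
CPM of Plin2, Dgat2, Dgat1, Cd36, Cidec and Pnpla2 (vertical axes) in each library at 4, 50 and 170 days after the last CCl4 dose, with R&Zflox in blue, R&Zdel in red and a bar at the group mean. Plin2 at 4 days shows the 2 R&Zflox libraries at 1101 and 1584 CPM and the 2 R&Zdel libraries at 532 and 550 CPM.

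By 50 days Dgat2 was the member with the clearest difference. The lone R&Zflox library had 762 CPM and the R&Zdel libraries 335 and 461 CPM (log2 fold change -0.90, SE 0.27, adjusted p = 0.102 by edgeR), where the lone library was taken to vary like the other groups. With the 2 R&Zflox libraries that the sample list gives under both times counted as 50 days, the difference was -0.72 (adjusted p = 0.0408). With 50 days fitted alone it was -0.89, and with libraries blocked by replicate number -0.69, and neither passed the adjusted p. Over the 9 alternatives the difference ran from -1.14 to -0.69. Plin2, with 594 CPM against 503.5 and 629 CPM, overlapped. At 50 days 0 of 10 members were changed by edgeR or DESeq2, beside 5.58% of all genes, and by the looser rule 1 was lower, beside 23.1%. The summed cholangiocyte markers were still 595 and 894 CPM in R&Zdel against 107 CPM in R&Zflox.

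At 170 days the fatty acid receptor gene Cd36 was higher in R&Zdel, with 118 and 173 CPM against 61.2 and 85.2 CPM in R&Zflox (log2 fold change 0.99, SE 0.26, adjusted p = 0.217 by edgeR). The groups did not overlap. Pnpla3 was higher too, with 8.53 and 19.5 CPM against 1.25 and 4.17 CPM (2.39, SE 0.80, adjusted p = 0.359). No other member met either rule, with Dgat2 at 0.15 (SE 0.23), Plin2 at 0.23 (SE 0.28), Dgat1 at 0.26 (SE 0.16) and Cidec at 1.41 (SE 0.78). Both R&Zflox libraries are those that the study's sample list also gives as 50 days, and no 170-day comparison can be made without them. At 170 days 0 of 10 members were changed by edgeR or DESeq2, beside 0.625% of all genes, and 2 were higher by the looser rule, beside 9.11%. Cholangiocyte markers summed to 257 and 308 CPM in R&Zdel and to 55.6 and 297 CPM in R&Zflox.

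Over the mean of the 3 CCl4 times Cidec was changed upward (3.09-fold, log2 fold change 1.63, SE 0.52, adjusted p = 0.0611 by edgeR). Its levels at 50 days were 2.83 CPM in R&Zflox and 6.63 and 11.7 CPM in R&Zdel, and at 170 days 3.14 and 7.81 CPM against 3.34 and 25.6 CPM, where the genotypes overlapped. The call was lost with R&Zdel 4 days replicate 1 left out (adjusted p = 0.109), with R&Zdel 50 days replicate 2 (0.125), with R&Zdel 170 days replicate 1 (0.103, log2 fold change 0.93) and with R&Zflox 4 days replicate 1 (0.127) or replicate 2 (0.106), and the adjusted p over all alternatives ran from 5.62e-12 to 0.255. Dgat2 was lower in the mean (-0.48, SE 0.14, adjusted p = 0.0477), without reaching the fold of 1. Of the 10 members 1 was changed, upward, beside 6.74% of all genes, and 1 was higher and 1 lower by the looser rule, beside 25.3%.

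Within R&Zdel liver, 4 days was compared with 170 days after CCl4. Dgat2 fell at 4 days to 217 and 238 CPM from 685 and 726 CPM at 170 days (2.96-fold, log2 fold change -1.57, SE 0.23, adjusted p = 0.00310 by edgeR). Cd36 fell to 47.7 and 55.2 CPM from 118 and 173 CPM (2.70-fold, -1.43, SE 0.26, adjusted p = 0.00613). Neither gene overlapped between the times, and both calls held under all 8 alternatives. Dgat1 (-0.57, SE 0.16), Plin2 (-0.69, SE 0.28), Plin5 (-0.76, SE 0.31) and Pnpla2 (-0.81, SE 0.30) were lower at 4 days by the looser rule. All 10 estimates were negative, while 52.5% of all genes had positive ones, with a median of -0.72 against 0.04 over all genes. The members were not tested as a set. In R&Zdel 2 of 10 members were changed, both downward, beside 22% of all genes, and 6 were lower by the looser rule, beside 41.9%. Cell markers moved between these times too, with cholangiocyte sums of 2667 and 4215 CPM at 4 days against 257 and 308 CPM at 170 days, hepatocyte sums of 54748 and 75792 CPM against 80155 and 83186 CPM, and macrophage sums of 436 and 807 CPM against 188 and 248 CPM. Their part was not tested.

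Within R&Zflox liver the same times gave another picture. Plin2 was higher at 4 days, at 1101 and 1584 CPM against 620 and 942 CPM at 170 days (log2 fold change 0.79, SE 0.28, adjusted p = 0.171 by edgeR), and the difference was 0.50 without R&Zflox 4 days replicate 2 and 0.52 without R&Zflox 170 days replicate 1. Dgat2 was lower, at 364 and 402 CPM against 541 and 727 CPM (-0.72, SE 0.23, adjusted p = 0.133). Pnpla3 was higher, at 11.5 and 13.2 CPM against 1.25 and 4.17 CPM (2.22, SE 0.79, adjusted p = 0.173). In R&Zflox 0 of 10 members were changed, beside 4.30% of all genes, and by the looser rule 2 were higher and 1 lower, beside 18.8%. Macrophage sums were 621 and 1257 CPM at 4 days against 230 and 321 CPM at 170 days and endothelial sums 299.97 and 301 CPM against 102 and 124 CPM, and their part was not tested.

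The difference between these changes, which is also the difference of the genotype effects at 4 and 170 days, was tested directly. Plin2 passed it (log2 difference -1.48, SE 0.40, adjusted p = 0.0786 by edgeR): it was higher at 4 days than at 170 days in R&Zflox and lower in R&Zdel. The call was lost when any 1 of 7 of the 8 libraries was left out, with adjusted p from 0.141 to 0.211. It held without R&Zflox 170 days replicate 2. The test rests on the R&Zflox libraries that the study's sample list gives under 50 and 170 days, and cannot be made without them. Dgat1 passed the adjusted p but not the fold (-0.81, SE 0.23, adjusted p = 0.0888), and Cd36 (-1.06, SE 0.36), Dgat2 (-0.85, SE 0.32) and Pnpla3 (-2.69, SE 1.07) met the looser rule. In all 1 member was changed, beside 6.92% of all genes, and 5 met the looser rule, all lower, beside 22.9%.

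**Figure D3:**
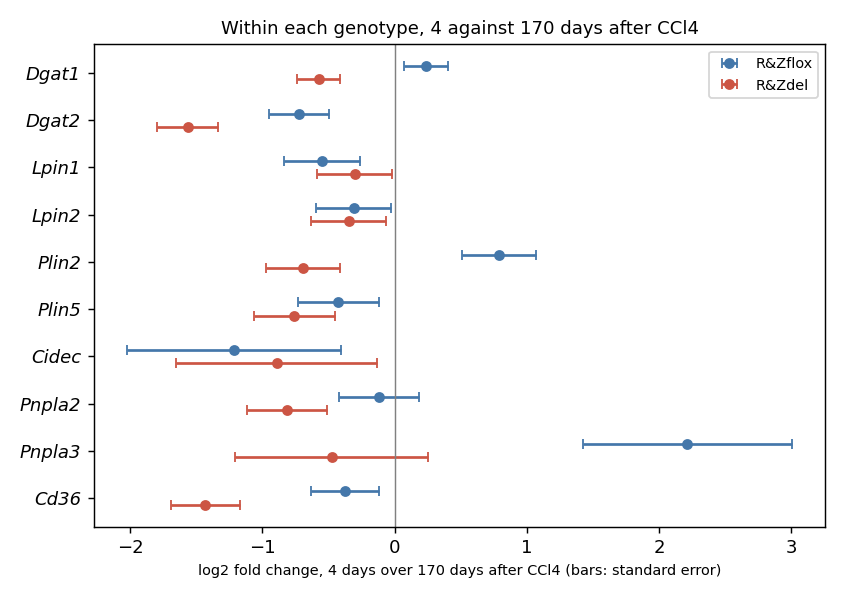
Fitted log2 fold change of the 10 genes at 4 days over 170 days after CCl4 (horizontal axis, bars for standard error) in R&Zflox (blue) and R&Zdel (red). Plin2 sits at 0.79 in R&Zflox and at -0.69 in R&Zdel, and Dgat2 is below 0 in both.

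Damaged and undamaged livers of batch 1 were compared in 3 pairs of groups. At 4 days after CCl4 the time since deletion was shorter than in the 3M livers. R&Zflox liver at 4 days after CCl4 had higher Plin2 than undamaged R&Zflox 3M liver of the same batch, 1101 and 1584 CPM against 604 and 854 CPM (log2 fold change 0.88, SE 0.30, adjusted p = 0.18), and lower Dgat2, 364 and 402 CPM against 550 and 810 CPM (-0.83, SE 0.27, adjusted p = 0.152). Without R&Zflox 3M replicate 3 of batch 1 the Dgat2 difference was -0.52. Of the members 0 were changed there, beside 3.00% of all genes, and 1 was higher and 1 lower by the looser rule, beside 15.6%. At 170 days after CCl4 against undamaged 7M liver, R&Zflox had 0 members called by either rule, beside 0.00% (changed) and 5.53% (looser rule) of all genes. The sex term of this fit was set by the female R&Zflox 7M library, whose title conflicts with its other labels. The R&Zflox comparison thus rests on 1 male undamaged library, and its lack of calls carries little weight. In R&Zdel at 170 days Lpin2 was lower than in undamaged 7M liver, 72.7 and 99.7 CPM against 140 and 227 CPM (-1.09, SE 0.32, adjusted p = 0.584), and the difference was -0.70 without R&Zdel 7M replicate 1. Lpin1 was lower as well, 26.1 and 31.5 CPM against 42.1 and 102 CPM (-1.32, SE 0.39, adjusted p = 0.584), and without R&Zdel 7M replicate 1 this was -0.55. Pnpla2 was also lower (-0.79, SE 0.29, adjusted p = 0.655) and Pnpla3 higher (1.89, SE 0.78, adjusted p = 0.7, and 1.17 without R&Zdel 170 days replicate 1). In that comparison 0 members were changed, beside 0.00% of all genes (856 genes at an unadjusted p under 0.05, and 2 members changed by DESeq2), and 1 was higher and 3 lower by the looser rule, beside 6.60%.

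After PHx the synthesis gene Dgat2 and the coat genes Plin2 and Plin5 were higher in R&Zdel by the looser rule, each at 7 days or over both times. At 7 days Dgat2 had 291, 308 and 445 CPM in R&Zflox and 485, 486 and 493 CPM in R&Zdel (log2 fold change 0.51, SE 0.22, adjusted p = 0.817 by edgeR). At 21 days it had 611, 618 and 740 CPM against 819, 852 and 892 CPM (0.33, SE 0.23, adjusted p = 0.718). The genotypes did not overlap at either time, and the R&Zdel libraries lay closer together than the R&Zflox libraries at 7 days. Over both times Dgat2 was higher by 0.42 (SE 0.16, adjusted p = 0.371). It was 0.38 without the R&Zflox 7 days library that went against its listed sex. Without R&Zflox PHx 7 days replicate 1 it was 0.37, and without R&Zflox PHx 21 days replicate 2 it was 0.39. These 3 values do not reach the 0.4 of the looser rule.

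Plin2 at 7 days had 256, 473 and 480 CPM in R&Zflox and 570, 599 and 661 CPM in R&Zdel (log2 fold change 0.62, SE 0.22, adjusted p = 0.673 by edgeR). The lowest R&Zflox value belonged to the library that went against its listed sex, and without it the difference was 0.38, while the genotypes still did not overlap. Plin2 overlapped at 21 days (-0.20, SE 0.23). Without the same library Dgat2 at 7 days was higher by 0.43, and neither then met the looser rule.

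Plin5, the coat gene of tissues that burn fatty acids, had 17, 62.3 and 90.9 CPM in R&Zflox and 73.3, 111 and 111 CPM in R&Zdel at 7 days, and 57.0, 85.8 and 87.1 CPM against 82.9, 119 and 169 CPM at 21 days. The groups overlapped at both times, and over both Plin5 was higher by 0.79 (SE 0.28, adjusted p = 0.334 by edgeR), and by 0.57 without the library that went against its listed sex, which was the lowest at 7 days. Pnpla2 was higher over both times by 0.51 (SE 0.25, adjusted p = 0.513), with no overlap at 21 days, where R&Zflox had 39.3, 53.7 and 82.4 CPM and R&Zdel 99.7, 102 and 118 CPM. Pnpla3 was near 0 in most libraries, from 0 to 2.28 CPM in R&Zdel and from 0.0724 to 10.9 CPM in R&Zflox, and met the looser rule in the lower direction (adjusted p = 0.431), at levels too low for a fold. Lpin2 (0.34, SE 0.27) and Dgat1 (0.01, SE 0.26) had differences near their errors.

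By count, edgeR found 0 of 10 members changed at 7 days, at 21 days and over both times (DESeq2 0, 0 and 1), beside 0.274%, 0.329% and 0.705% of all genes. By the looser rule 2, 0 and 3 were higher and 0, 0 and 1 lower, beside 5.83%, 8.61% and 9.25% of all genes. The hepatocyte marker sum was between 61655 and 106215 CPM in R&Zdel and between 122383 and 164453 CPM in R&Zflox after PHx, and its part was not tested. Stellate cell markers summed to between 57.0 and 87.9 CPM in R&Zdel and to between 174 and 248 CPM in R&Zflox at 7 days, and their part was not tested either.

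**Figure D4:**
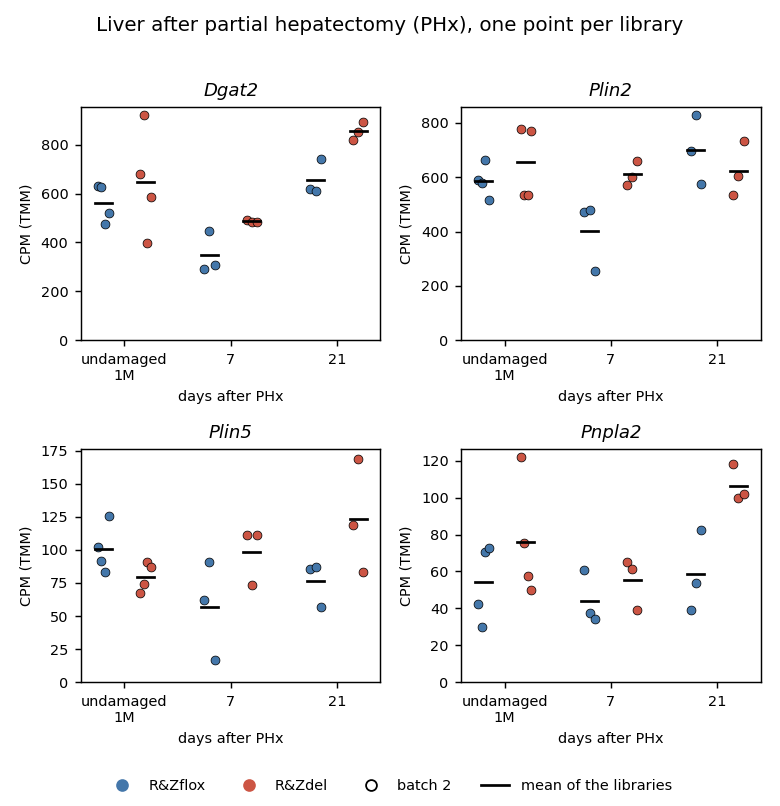
CPM of Dgat2, Plin2, Plin5 and Pnpla2 (vertical axes) in each batch 2 library of undamaged 1M liver and of liver at 7 and 21 days after PHx, with R&Zflox in blue, R&Zdel in red and a bar at the group mean. The 3 R&Zdel libraries of Dgat2 lie above the 3 R&Zflox libraries at both 7 and 21 days.

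Each PHx group was also set against undamaged 1M liver of its genotype, though times since deletion differed. In R&Zflox at 7 days Dgat2 was lower than the 474 to 630 CPM of 1M liver (log2 fold change -0.64, SE 0.22, adjusted p = 0.708), as were Plin2 (-0.51, SE 0.22, adjusted p = 0.822) and Plin5 (-0.997, SE 0.41, adjusted p = 0.771). Without the library that went against its listed sex, Plin2 was at -0.27 and Plin5 at -0.57. In R&Zflox at 21 days Lpin2 was higher, at 201, 281 and 288 CPM (0.87, SE 0.38, adjusted p = 0.701). In R&Zdel at 7 days Lpin2 was lower, at 95.0, 96.3 and 239 CPM (-0.97, SE 0.40, adjusted p = 0.967, and -1.58 without R&Zdel PHx 7 days replicate 2), and at 21 days Dgat2 (0.45, SE 0.21, adjusted p = 0.958) and Pnpla2 (0.72, SE 0.33, adjusted p = 0.958) were higher. Without R&Zdel 1M replicate 3 the Dgat2 difference was 0.24. No member was changed in these 4 comparisons, beside 0.0235% and 0.00% of all genes in R&Zflox at 7 and 21 days and 0.0157% and 0.00% in R&Zdel. The looser rule called 3 members lower, 1 higher, 1 lower and 2 higher in the same order, beside 5.73%, 6.88%, 4.92% and 4.82% of all genes.

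**Figure D5:**
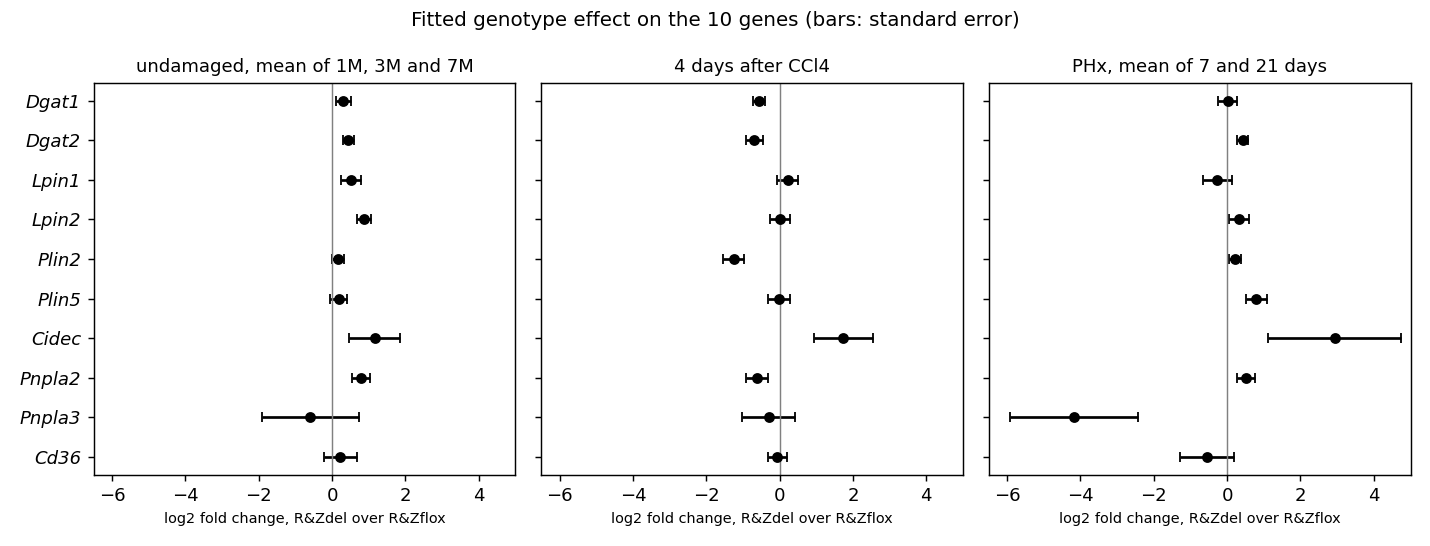
Fitted log2 fold change of R&Zdel over R&Zflox (horizontal axis, bars for standard error) for the 10 genes in undamaged liver (mean of 3 times), at 4 days after CCl4 and after PHx (mean of 2 times). Lpin2 is at 0.87 in undamaged liver and at 0.01 after CCl4, Plin2 is at -1.25 after CCl4, and the bars of Cidec and Pnpla3 are wide.

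The wider pathway was followed in the same 5 lists (triglyceride synthesis, droplet coat and biogenesis, lipolysis, fatty acid uptake and activation, and lipid transcription factors), with 64 genes tested after CCl4. At 4 days 7 were changed upward and 15 downward in R&Zdel, beside 15.2% of all genes changed in either direction. Of the 13 tested lipolysis genes 0 were changed upward and 5 downward, and of the 14 tested uptake and activation genes 2 upward and 7 downward. Mogat1, which joins fatty acids to monoacylglycerol, rose to 11.5 and 15.6 CPM from 0.213 and 0.253 CPM (log2 fold change 5.89, SE 0.73, adjusted p = 0.00212 by edgeR). Vldlr rose to 6.28 and 7.56 CPM from 0.145 and 0.425 CPM (4.63, SE 0.50, adjusted p = 0.00124). Plin4, a perilipin, rose by 2.66 (SE 0.82) and Pnpla5, a patatin lipase, fell by 3.06 on the log2 scale (SE 0.74).

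At 50 days 3 of the 64 list genes were changed upward and 5 downward, beside 5.58% of all genes, led by Vldlr (2.67), Lpl (2.31), Hsd17b13 (-2.15) and Slc27a1 (1.71), of which Lpl encodes lipoprotein lipase and Slc27a1 a fatty acid transporter. At 170 days Vldlr (2.83) and Lpl (2.27) were the 2 genes changed, both upward, beside 0.625% of all genes. Lpl then had 42.3 and 46.8 CPM in R&Zdel and 8.51 and 9.91 CPM in R&Zflox. In the mean of the CCl4 times 5 were changed upward and 1 downward, beside 6.74%, with Vldlr (3.38), Mogat1 (2.55), Mogat2 (2.26) and Lpl (1.79) the largest.

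Between 4 and 170 days, R&Zdel had 6 list genes changed upward and 18 downward at the earlier time, beside 22% of all genes, and R&Zflox 5 and 4, beside 4.30%. The droplet-forming gene Fitm1 fell in both, with a log2 fold change of -3.68 in R&Zdel and of -6.27 in R&Zflox. Fabp2, a fatty acid binding protein gene, fell by 3.27 in R&Zdel. The difference between the genotypes was passed by 3 list genes upward and 5 downward, beside 6.92%, with Pnpla5 (-6.66), Mogat1 (4.90), Fabp5 (-3.97) and Fabp2 (-3.18) the largest. Against undamaged 3M liver, R&Zflox at 4 days had 1 list gene changed upward (Lpl, 2.51) and 3 downward (Fitm1, -5.51, Mogat1, -4.42, and Abhd6, -1.10), beside 3.00%, and the comparisons of 170 days with undamaged liver had none by the adjusted rule.

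After PHx, 0 list genes were changed upward and 1 downward at 7 days, 1 and 1 at 21 days, and 1 and 2 in the mean, beside 0.274%, 0.329% and 0.705% of all genes. Hsd17b13 was changed downward each time. It had 275, 300 and 302 CPM in R&Zflox and 59.8, 96.0 and 108 CPM in R&Zdel at 7 days, and 263, 325 and 328 CPM against 18.1, 20.5 and 68.4 CPM at 21 days. Its mean log2 fold change was -2.40 (SE 0.28, adjusted p = 2.95e-05 by edgeR), and the genotypes did not overlap. G0s2, the inhibitor of the lipase encoded by Pnpla2, fell by 1.40 in the mean (SE 0.34, adjusted p = 0.0590), and Nr1h2, a nuclear receptor for oxysterols, rose by 1.09 (SE 0.26, adjusted p = 0.0523).

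Over the 25 undamaged libraries, after sex and batch were taken out, each member was matched with the 2 other genes of most similar log2 level, as a description, since these points share genotype and time. Lpin2 was closest to Klhl21 (Pearson's r = 0.89) and Etnk2 (0.88), Pnpla2 to Fcgrt (0.93) and Tex264 (0.91), Dgat2 to Thrsp (0.87) and Igfbp4 (0.84), and Dgat1 to Aar2 (0.88) and Agxt (0.87). Lpin1 was closest to Rgs16 (0.86) and Gch1 (0.83), Cd36 to Hps5 (0.85) and Ddit4 (0.79), Plin5 to Fpgs (0.83) and Pxmp4 (0.82), and Plin2 to Ldha (0.81) and Ddo (0.77). Cidec was closest to Acot3 (0.82) and Gys2 (0.76), and Pnpla3, at 0 in some libraries, to Fbxo3 and Kif24 (0.71 each). Among the members themselves the highest correlation was between Dgat2 and Lpin1 (0.83) and the lowest between Cd36 and Dgat1 (-0.63). The droplet coat gene Plin2 had its highest r, 0.45, with the uptake gene Cd36, and -0.08 to 0.29 with the others.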

How the data were processed

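The authors sequenced poly(A) RNA of whole liver as single reads (Smart-Seq2), trimmed (with Trim Galore per the submitters' processing notes, with Sickle per the study's methods), aligned to mm10 with STAR 2.5.0a and counted per gene with featureCounts (1.5.0-p1 and 1.5.0-p3, unstranded per the file headers). The deposited values are raw counts per gene, 1 table for batch 2 and 1 file per library for batch 1. Reads of antisense or overlapping genes cannot be told apart.

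The series has 55 samples: 48 libraries were grouped, 5 whose labels disagree were not, and 2 samples were not analysed here. Counts were tested in edgeR 4.0.16 (R 4.3.3; TMM scaling, quasi-likelihood test, Benjamini-Hochberg adjustment over all genes), after keeping genes above 1 CPM in 3 libraries (at least 1 CPM in 6 of the CCl4 libraries). Terms were group, sex and batch in undamaged liver (25 libraries), group alone after CCl4 (11), and group and sex after PHx (20, with 1M liver) and in batch 1 (18). CPM use TMM library sizes. The SE is the log2 fold change over the square root of F. Alternatives included DESeq2 1.42.0. The scripts were tested on simulated data.

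The members, gene lists and tests were chosen with earlier results of these data known. List genes were named if changed, at most 4 per comparison by fold. Each library was taken as a replicate, and p-values measure only the spread between libraries.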

Additional observations from a re-analysis of the deposited data

Results flagged for a closer look

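In R&Zflox 1M liver, 1 of 4 libraries stood apart in Cidec, at 3.59 CPM beside 0.862, 0.914 and 1.13 CPM. It exceeded Dixon's 95% critical value in 1 of 20 checks made, and chance gives about 1 in 20.

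The genotype effects at 4 and 170 days after CCl4 differed by a direct test in Dgat1 (log2 difference -0.81) and in Plin2 (-1.48). The Dgat1 effect was -0.55 at 4 days and 0.26 at 170 days, and the Plin2 effect was -1.25 and 0.23. Dgat1 passed the adjusted p (0.0888 by edgeR) but not the fold threshold, with an adjusted p of up to 0.245 over the alternatives, and the Plin2 call was lost when any 1 of 7 of the 8 libraries was left out. Both rest on 2 livers per genotype and time.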

How the results depend on the processing

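The counts of members changed moved as follows, and the cause was not tested. Without the low-count filter there were 1 at undamaged 7M, 2 at CCl4 4 days, 1 at 50 days, 3 at 170 days, 2 for R&Zflox 4 against 170 days, 3 for the difference of genotype effects and 3 for R&Zdel 170 days against 7M. DESeq2 gave 2 at CCl4 4 days, 2 for the difference, 2 for R&Zdel 170 days against 7M and 1 for the PHx mean. The likelihood ratio test gave 1 at 7M, 2 at CCl4 4 days, 1 for R&Zflox 4 against 170 days and 2 for the difference. A fit of the compared time alone gave 2 at CCl4 4 days and 1 at 50 days. The looser rule gave 1 at 1M, 2 at 3M, 3 at 7M and 3 in the undamaged mean, 3, 1, 2 and 2 at CCl4 4, 50 and 170 days and their mean, and 2 at PHx 7 days and 4 in the PHx mean, where the study's PHx threshold gave 1. Leaving out 1 library at a time gave from 0 to 1 at 7M, in the undamaged mean, at CCl4 4 days, at 170 days and for R&Zflox 4 against 170 days, from 0 to 2 for the CCl4 mean and from 0 to 4 for the difference. No member difference that was called by either rule reversed under the alternatives run. Counts over all genes, with their range over the alternatives, were 56 at 1M (14 to 297), 29 at 3M (0 to 132), 58 at 7M (14 to 204), 154 in the undamaged mean (97 to 362) and 118 for sex (124 to 312). After CCl4 they were 1729 at 4 days (813 to 2956), 634 at 50 days (0 to 1671), 71 at 170 days (0 to 600), 766 in the mean (597 to 1754), 488 and 2498 for 4 against 170 days in R&Zflox (104 to 1532) and R&Zdel (1501 to 3986), and 786 for the difference (83 to 2159). Against undamaged liver they were 378 at 4 days (79 to 1109) and 0 at 170 days in both genotypes (up to 488 in R&Zflox and 445 in R&Zdel). After PHx they were 35 at 7 days (10 to 209), 42 at 21 days (19 to 421) and 90 in the mean (55 to 389), and against 1M liver 3 and 0 in R&Zflox (up to 171 and 305) and 2 and 0 in R&Zdel (up to 186 and 177).

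Replicate numbers were shared between groups. Deviations of same-numbered libraries from their group means correlated from -0.357 to 0.333 over 18 pairs, with 3 above 0.1 (pairs mirror each other where a group has 2 libraries), so the numbers were not taken to pair the mice. With the replicate block the CCl4 mean had 0 members changed in place of 1, with Cidec at 1.30 (adjusted p = 0.255), and no other count of members moved.

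Precision is limited by the 1 to 5 livers per group, and for Cidec and Pnpla3 by libraries at 0 in batch 2.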

Other observations

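The 5 libraries whose labels disagree on genotype or time entered no comparison. Their lowest, median and highest values were 622, 899 and 1263 CPM for Dgat2, 110, 122 and 154 CPM for Lpin2, 421, 484 and 756 CPM for Plin2, 81.8, 87.5 and 122 CPM for Pnpla2 and 56.4, 130 and 143 CPM for Cd36. Glul was at 148, 675 and 846 CPM and Alb at 16996, 28010 and 101995 CPM in the same libraries.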
